A study of Mus musculus with 4 samples.

Results

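The glucocorticoid receptor gene Nr3c1 and 5 genes that lymphocytes are known to induce in response to glucocorticoids, Tsc22d3, Fkbp5, Sgk1, Ddit4 and Errfi1, were followed in CD8 T cells sorted from mouse spleen. A probe set was taken for a gene when the platform annotation maps it to that gene and no other. This gave 12 probe sets for the 6 genes, of 22626 probe sets and 12393 named genes on the array. The main probe set of a gene is the one with the highest mean over the 4 arrays.

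The mice were female C57BL/6, aged 8 to 12 weeks, and received an intraperitoneal injection 24 h before the spleens were taken. One group received 10 µg/kg TCDD, a persistent dioxin that activates the aryl hydrocarbon receptor, and the other received the solvent DMSO. Cell suspensions of the 4 mice of a group were pooled, CD8 cells were sorted to over 99% purity, and amplified RNA was hybridised to Affymetrix arrays. There are 2 arrays per treatment, and their titles carry the numbers 1 and 2 in each. The labels do not say what the number marks or whether each array of a treatment had its own pool of mice, and the p-values cover only array-to-array spread, possibly a technical one. All values are log2 expression as deposited, and a difference of 1 is a 2-fold difference in signal.

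The glucocorticoid receptor is a nuclear receptor that waits in the cytosol in a complex with HSP90 chaperones. On binding corticosterone, the main glucocorticoid of mice, it enters the nucleus and binds DNA elements made of paired hexamers, from which it raises or represses transcription. In lymphocytes this restrains cytokine production and can induce apoptosis. Tsc22d3 encodes GILZ, a leucine zipper protein that binds and restrains inflammatory transcription factors. Fkbp5 encodes a cochaperone that lowers the receptor's affinity for hormone and so acts as its feedback inhibitor. Sgk1 encodes a serine/threonine kinase related to AKT, Ddit4 encodes REDD1, an inhibitor of the mTORC1 growth kinase, and Errfi1 encodes MIG6, an inhibitor of EGFR family receptor kinases. Several of these genes also answer other signals, among them stress, hypoxia and mitogens, so their levels are not a readout of the hormone alone.

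RefSeq start-site windows (mouse assembly GRCm38.p6, 250 bases before to 50 after a transcript start) were taken for the 5 target genes, 13 windows in all. Windows of the receptor gene Nr3c1 were left out of these 13. They are shown for Sgk1, which holds the complete palindromic receptor element, and for Tsc22d3, Errfi1 and Ddit4, the genes that differed most between arrays. The complete element searched was the hexamer AGAACA, any 3 bases, and the hexamer TGTTCT, which reads the same on both strands. It was present in 1 of the 13 windows, in Sgk1, starting 189 bases before that transcript start. Of all 32851 windows of this length, 3 held it, or 0.00913%. The shorter core ACANNNTGT, which the complete element contains, was in 2 of the 13 windows, both of Sgk1, and in 6.85% of all windows. The half-site AGAACA on either strand, which is also part of the complete element, was in 4 of the 13 windows and in 19.0% of all. Capitals mark matches to these motifs, and in the Errfi1 window to the cyclic AMP response element TGACGTCA, a motif added after the windows had been read. That element is its own reverse complement and overlaps none of the other matches, and it was in 1 of the 13 windows and in 1.79% of all. The Ddit4 window held none of the 4 motifs, and neither did the other Errfi1 window, the Fkbp5 window, 2 of the 6 Sgk1 windows or the other 2 windows of Tsc22d3. A match is a description of the letters, and no binding was measured here.
Sgk1, chr10:21993640-21993939, plus strand: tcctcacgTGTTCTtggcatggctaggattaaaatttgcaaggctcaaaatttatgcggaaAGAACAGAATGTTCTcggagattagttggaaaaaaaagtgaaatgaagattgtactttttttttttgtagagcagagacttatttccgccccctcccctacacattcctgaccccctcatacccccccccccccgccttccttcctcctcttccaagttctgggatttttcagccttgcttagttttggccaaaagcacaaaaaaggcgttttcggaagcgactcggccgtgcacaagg
Tsc22d3, chrX:140600473-140600772, minus strand: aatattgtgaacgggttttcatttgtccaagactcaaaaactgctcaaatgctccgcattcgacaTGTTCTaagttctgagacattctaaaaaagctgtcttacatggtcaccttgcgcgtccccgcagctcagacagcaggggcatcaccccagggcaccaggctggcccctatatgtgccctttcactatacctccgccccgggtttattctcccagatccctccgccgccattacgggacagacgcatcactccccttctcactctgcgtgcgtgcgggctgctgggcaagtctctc
Errfi1, chr4:150854820-150855119, plus strand: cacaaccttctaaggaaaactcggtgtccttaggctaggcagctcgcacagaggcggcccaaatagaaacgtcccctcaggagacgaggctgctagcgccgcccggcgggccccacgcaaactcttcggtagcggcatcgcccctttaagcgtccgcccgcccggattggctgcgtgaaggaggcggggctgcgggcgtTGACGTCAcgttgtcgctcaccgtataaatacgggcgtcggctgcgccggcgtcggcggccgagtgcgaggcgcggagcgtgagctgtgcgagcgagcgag
Ddit4, chr10:59951721-59952020, minus strand: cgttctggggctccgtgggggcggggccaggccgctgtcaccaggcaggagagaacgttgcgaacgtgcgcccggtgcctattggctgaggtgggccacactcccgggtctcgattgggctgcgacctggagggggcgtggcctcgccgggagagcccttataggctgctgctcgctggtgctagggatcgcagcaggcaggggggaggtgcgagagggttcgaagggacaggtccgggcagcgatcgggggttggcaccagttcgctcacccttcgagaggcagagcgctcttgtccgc

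The arrays as a whole bear on every value that follows. All 6 main probe sets had means above 6.01, the median of all probe set means, and of the 12 probe sets 10 did. Log2 differences between 2 arrays had an SD of 0.20 over all probe sets between the TCDD and DMSO arrays numbered 1, and of 0.27 to 0.35 between any other pair. Of 10 markers of CD8 T cells 9 were named on the array, and their mean level was 8.997 and 9.38 on TCDD arrays 1 and 2, against 9.43 and 9.48 on DMSO arrays 1 and 2. The coreceptor genes Cd8a and Cd8b1 were at 8.17 and 8.16 or more on every array. MHC class II genes, which mark B cells and other presenting cells, were well above the median level on all 4 arrays: H2-Aa measured 11.30 and 10.94 on the TCDD and DMSO arrays numbered 1, against 10.42 and 9.51 on those numbered 2. Of 10 B cell markers 6 had means above the median level, the class II genes, Cd74, Cd22 (7.24) and Cd79b (6.51), and Cd79a, Ms4a1, Pax5 and Blk were below it. DMSO array 2 had the neutrophil gene S100a8 at 8.67 and the plasma cell gene Jchain at 8.04, against 5.45 to 5.94 and 5.48 to 6.60 on the other arrays. The neutrophil gene S100a9 stood apart there too, at 7.80 against 4.61 to 5.63 elsewhere. By less, Ngp at 6.89 (6.21 to 6.58 elsewhere), Ltf at 6.74 (6.19 to 6.38), Camp at 6.52 (6.04 to 6.25) and Sdc1 at 6.92 (6.62 to 6.79) were also highest there. The remaining genes of those lists did not stand apart: Elane was at 6.98 (6.73 to 7.05 elsewhere), Mpo at 6.18 (5.97 to 6.23), Xbp1 at 8.01 (7.63 to 8.00) and Prdm1 at 5.22 (5.33 to 5.36). In sorted cells measured in bulk, fewer cells of a type and less RNA per cell cannot be told apart.

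No difference with TCDD was detected for the receptor or its targets, with Sgk1 the nearest to one. The main probe sets differed by between -0.34 for Sgk1 and 0.35 for Errfi1, with a median of -0.02 over the 6 genes and 0.01 over all named genes. None of the 6 passed limma after Benjamini-Hochberg adjustment across the array (adjusted p = 0.997 for each), and of all probe sets 0% did. Before adjustment 1 of the 6, Sgk1, had p under 0.05, as had 1.94% of all probe sets. That share was 1.14% for lower and 0.804% for higher probe sets. The TCDD and DMSO values did not overlap for the same 1 of the 6, against 25.5% of all probe sets, of which 13.5% were higher and 12% lower. The share with a gap of at least 2-fold was 0.115%, and 0 of the 6 had one. The smallest two-sided p that an exact permutation of these arrays allows is 0.333, and none is given.

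**Figure D1:**
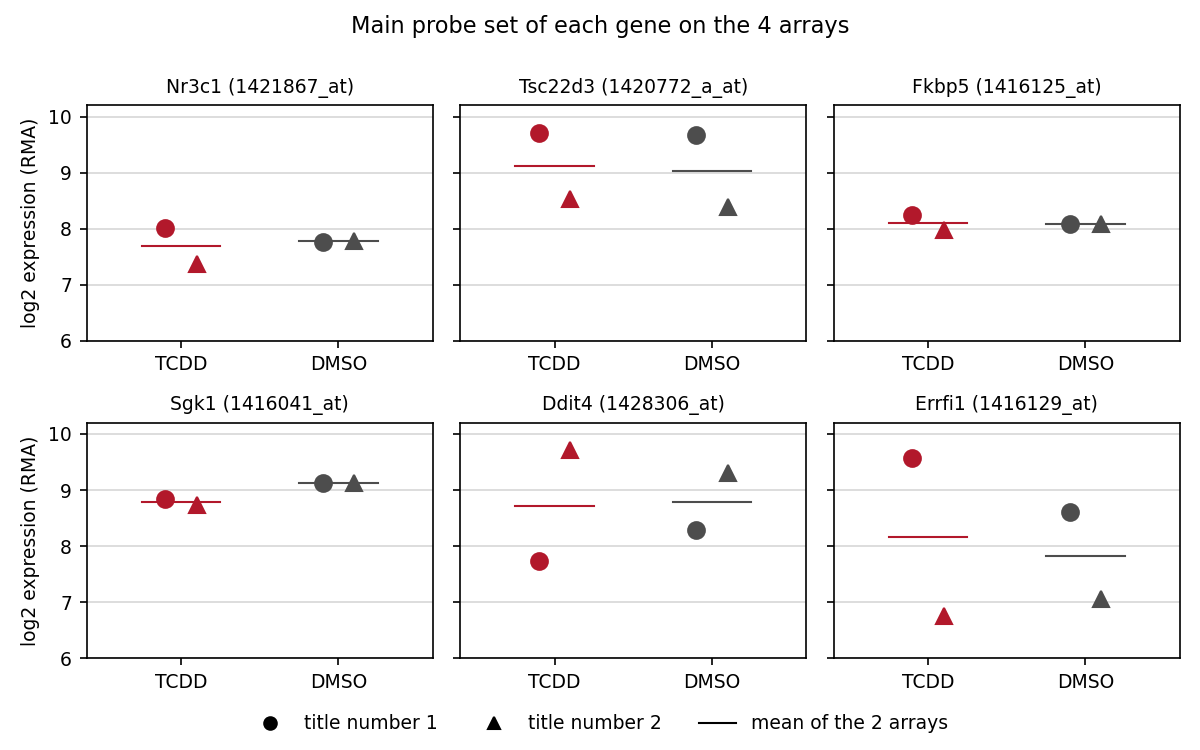
Log2 expression of the main probe set of each of the 6 genes on each of the 4 arrays, TCDD left and DMSO right in each panel. Circles are arrays with title number 1, triangles those with number 2, and lines are treatment means of 2 arrays. Tsc22d3 and Errfi1 are higher and Ddit4 is lower on the arrays numbered 1 in both treatments, and Sgk1 alone has its TCDD values, 8.84 and 8.73, apart from its DMSO values of 9.12.

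Nr3c1, the receptor itself, measured 8.02 and 7.37 on TCDD arrays 1 and 2, against 7.77 and 7.78 on DMSO arrays 1 and 2. The TCDD values lay on either side of the DMSO pair, and the means were 7.70 ± 0.46 after TCDD and 7.78 ± 0.007 after DMSO (SD, n = 2 each). The difference was -0.08, with 95% limits of -0.69 and 0.53 (limma adjusted p = 0.997), so these arrays allow anything between a 1.61-fold lower and a 1.44-fold higher receptor signal. TCDD array 1 was 0.25 above DMSO array 1, and TCDD array 2 was 0.41 below DMSO array 2. A second receptor probe set, 1460303_at, gave 7.16 and 6.76 with TCDD and 6.43 and 6.91 with DMSO. This is a difference of 0.29 with limits of -0.30 and 0.88. The third, 1421866_at, was near the low end of the scale, at 4.22 and 4.42 with TCDD and 4.38 and 4.61 with DMSO. Its difference was -0.18 with limits of -0.54 and 0.19. The 3 probe sets gave differences of both signs, and the limits of each include 0.

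Sgk1, whose kinase phosphorylates FOXO factors and the ubiquitin ligase NEDD4L, measured 8.84 and 8.73 with TCDD and 9.12 and 9.12 with DMSO. It was lower on both TCDD arrays than on either DMSO array, by 0.28 within number 1 and by 0.39 within number 2. The difference of -0.34, a 1.26-fold lower signal, had limits of -0.61 and -0.06 and a limma p of 0.0265 before adjustment, which the adjustment took to 0.997. The limits included 0 when probe sets under the median level were left out (-0.70 and 0.03), with a variance trend and robust fitting (-0.82 and 0.15), without either DMSO array (-0.78 and 0.11) and without TCDD array 2 (-0.60 and 0.04). The limits stayed below 0 with arrays centred on their medians (-0.62 and -0.05) or normalised again (-0.56 and -0.07). They did so too without probe sets marked for possible cross-hybridisation (-0.60 and -0.07) and with the title number as a block (-0.65 and -0.02). The same held for gene means (-0.59 and -0.08) and without TCDD array 1, where the difference was -0.39. Sgk1 has a single probe set here, so no other reading of the gene can be set beside it. Immediate early genes were lower on the same arrays: over the 19 measured genes of the list for these and for tissue dissociation, the mean level was 9.13 and 8.26 with TCDD and 9.90 and 9.15 with DMSO. Of these 19 genes 8 were lower and 1 was higher without overlap, against 12% and 13.5% of all probe sets. At an unadjusted p under 0.05 there were 5 lower (1.14% of all), and limma called 0. Their median difference of -0.83 ranged from -1.51 (without TCDD array 1) to -0.33 (without DMSO array 1). Their part in the Sgk1 difference was not tested.

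Fkbp5, the receptor's feedback cochaperone and a sensitive glucocorticoid target in many tissues, had the tightest TCDD interval of the 6 except Sgk1. It measured 8.25 and 7.97 with TCDD and 8.08 and 8.09 with DMSO, with overlapping values. The fitted difference was 0.03, its limits were -0.33 and 0.38, and a signal over 1.30-fold higher or over 1.25-fold lower lay outside the interval. Its other probe set, 1448231_at, gave 6.23 and 6.61 with TCDD and 6.57 and 6.65 with DMSO. This is a difference of -0.19 with limits of -0.61 and 0.23.

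Tsc22d3, Ddit4 and Errfi1 had TCDD differences of 0.09, -0.07 and 0.35, each with wide limits. Those limits were -1.41 and 1.59 for Tsc22d3, -1.98 and 1.84 for Ddit4 and -2.40 and 3.09 for Errfi1. The fit without the title number counts the gap between arrays 1 and 2 of a treatment as error, and for these 3 genes that gap was over 1. For Tsc22d3 the TCDD array was above the DMSO array of the same number by 0.04 and 0.14. For Ddit4 it was 0.55 lower in number 1 and 0.41 higher in number 2, and for Errfi1 0.98 higher in number 1 and 0.29 lower in number 2. With the title number as a block the limits were narrower, at -0.23 and 0.41 for Tsc22d3, -0.93 and 0.79 for Ddit4 and -0.76 and 1.45 for Errfi1. In that fit the limma adjusted p was 0.994 for each of the 6 genes.

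The same 3 genes separated the arrays numbered 1 from those numbered 2 in both treatments. Errfi1 and Tsc22d3 were higher and Ddit4 lower on the arrays numbered 1, each by more than 1 on the log2 scale. Of the 6 main probe sets, 3 had differences of that size without overlap, against 0.809% of all probe sets. Above the median level, where all 6 lie, 1.52% of probe sets differed by at least 1, whether or not they overlapped. Without regard to size, 3 of the 6 did not overlap, against 36.6% of all probe sets: 2 of the 6 were higher without overlap (13.9% of all probe sets) and 1 was lower (22.7%). None of the 6 passed limma (adjusted p between 0.162 and 0.964), and of all probe sets 0.00442% did. That share is 1 probe set, Rgs1, a regulator of G protein signalling, named because it is the single call. Of the 6, 3 had an unadjusted p under 0.05, which 7.46% of all probe sets had. These were 2 higher genes (3.91% of all) and 1 lower gene (3.55%). The median over the 6 genes was 0.23, against -0.04 over all named genes. These differences, taken across treatments, cannot be assigned to a source by the labels.

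**Figure D2:**
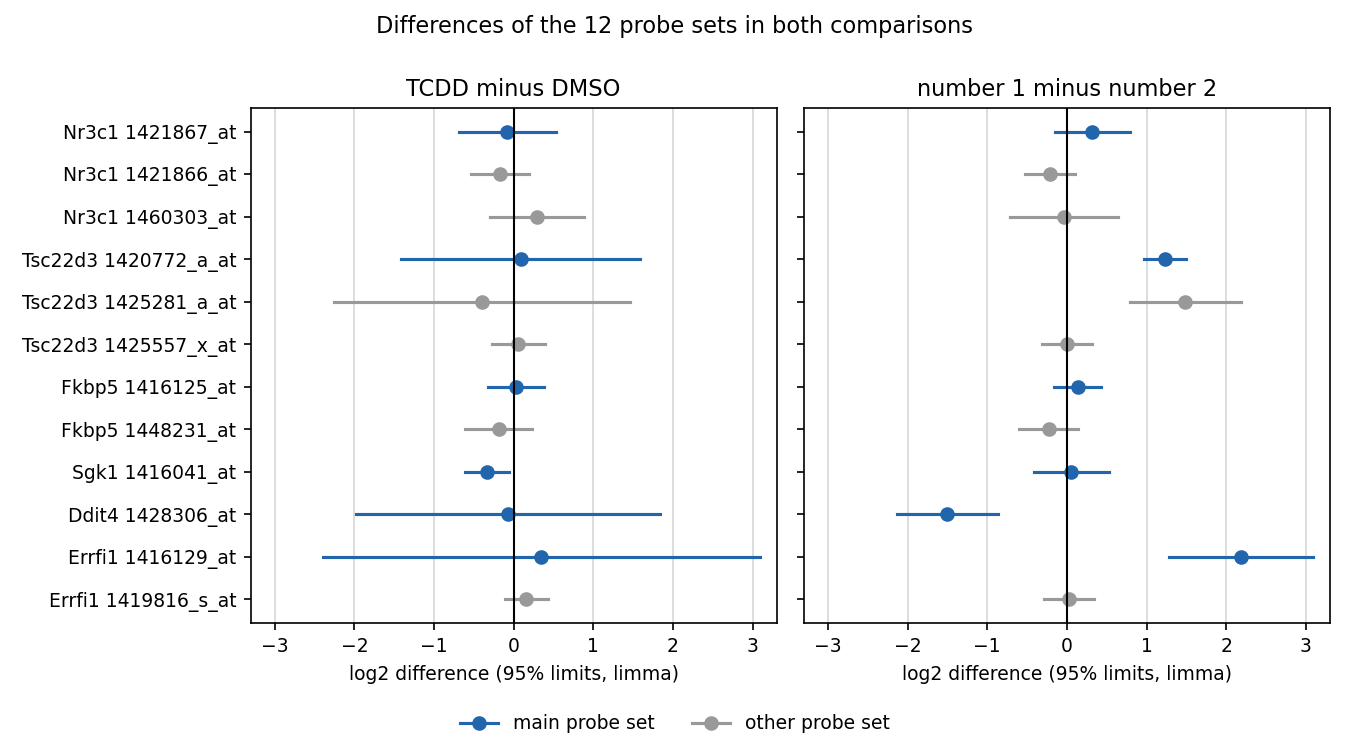
Log2 differences of all 12 probe sets with 95% limits from limma, TCDD minus DMSO on the left and title number 1 minus number 2 on the right. Blue marks main probe sets and grey the others. On the left every interval but that of Sgk1 crosses 0, and on the right those of Tsc22d3 (2 probe sets), Ddit4 and Errfi1 (1 probe set) lie clear of 0.

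Errfi1 had the widest range of the 6. It measured 9.58 and 8.60 on the TCDD and DMSO arrays numbered 1, against 6.76 and 7.05 on those numbered 2. The means were 9.09 ± 0.69 for number 1 and 6.91 ± 0.21 for number 2 (SD, n = 2 each), a 4.55-fold higher signal with number 1. The difference of 2.19 had limits of 1.28 and 3.09 and an unadjusted limma p of 0.00178 (adjusted p = 0.319). It was 2.82 within the TCDD arrays and 1.55 within the DMSO arrays. The other probe set, 1419816_s_at, stayed between 5.66 and 5.89 on all 4 arrays, below the median level, and differed by 0.03. Its ending, _s_at, marks possible cross-hybridisation. The Errfi1 difference was thus seen with the brighter of its 2 probe sets.

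Tsc22d3 measured 9.71 and 9.67 on the TCDD and DMSO arrays numbered 1, against 8.53 and 8.39 on those numbered 2. The values of a number lay within 0.14 of each other, and the gap between numbers was 1.18 within TCDD and 1.28 within DMSO. The difference of 1.23, or 2.35-fold, had limits of 0.97 and 1.49, an unadjusted limma p of 9.49e-05 and an adjusted p of 0.162. A second probe set of Tsc22d3, 1425281_a_at, gave 8.59 and 9.36 for number 1 against 7.48 and 7.50 for number 2, a difference of 1.49 with limits of 0.79 and 2.18. The third, 1425557_x_at, gave 7.19 and 7.30 for number 1 against 7.36 and 7.13 for number 2, with a difference of 0.00. It differs from the other 2, which both separated the numbers. Only the third has the ending _x_at, which marks possible cross-hybridisation. The other 2 end in _a_at, an ending that was also left out in the alternative run that removed probe sets by name ending.

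Ddit4 went the opposite way. It measured 7.73 and 8.28 on the TCDD and DMSO arrays numbered 1, against 9.71 and 9.30 on those numbered 2. The difference of -1.50, a 2.83-fold lower signal with number 1, had limits of -2.13 and -0.87 and an unadjusted limma p of 0.00191 (adjusted p = 0.319). It was -1.98 within TCDD and -1.02 within DMSO. Ddit4 and the other targets thus did not shift as a block between the numbers, since Errfi1 and Tsc22d3 were higher where Ddit4 was lower.

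Nr3c1, Fkbp5 and Sgk1 did not separate the numbers by their main probe sets. Nr3c1 differed by 0.32 with limits of -0.15 and 0.79, which was 0.65 within the TCDD arrays and -0.01 within the DMSO arrays. Fkbp5 differed by 0.14 with limits of -0.16 and 0.43, and Sgk1 by 0.06 with limits of -0.42 and 0.53. A Fkbp5 signal over 1.34-fold higher and a Sgk1 signal over 1.44-fold higher with number 1 lay outside these intervals. The dimmer probe sets of Nr3c1 (1421866_at) and Fkbp5 (1448231_at) were lower without overlap on the arrays numbered 1, with differences of -0.22 and -0.23 and limits that include 0.

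Genes with the most similar pattern were found for each member by the root mean square distance between log2 values centred on each gene's own mean, over the 4 arrays and 7383 candidate genes above the median level. With 4 arrays such a match is a description of these arrays. Errfi1 was nearest to Klf10, at a distance of 0.20, then to the clock gene Per1 (0.21) and the tubulin gene Tubb2a (0.22), all 3 higher with number 1, by 2.51, 2.03 and 2.30. Tsc22d3 was nearest to the amino acid transporter subunit gene Slc3a2 (0.06), to Atf4 (0.08), a transcription factor of the amino acid and endoplasmic reticulum stress response, and to Pnrc1 (0.09), with number differences of 1.16, 1.18 and 1.27. Ddit4 was nearest to the spliceosome gene Snrpd3 (0.15), to Clec2d (0.18) and to Ptprcap (0.22), which had number differences of -1.51, -1.21 and -1.10. Sgk1 was nearest to D16Ertd472e, Ybx1 and Phyh, with TCDD differences of -0.33, -0.33 and -0.32. Nr3c1 was nearest to Clec7a, Pcm1 and Srrm2, and Fkbp5 to Cct2, Tfip11 and Pik3r1, patterns whose own spread over the arrays was small (0.23 for Nr3c1 and 0.10 for Fkbp5). Between members the closest pair was Nr3c1 with Fkbp5 (0.14) and the farthest Ddit4 with Errfi1 (1.94).

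Other glucocorticoid-induced genes differed between the numbers in both directions, more of them higher than lower with number 1, and few separated TCDD from DMSO. Of 30 such genes 29 were measured. With TCDD their median difference was -0.01, between -0.11 (without TCDD array 1) and 0.03 (without TCDD array 2 or DMSO array 1) as arrays were left out. The treatments did not overlap for 3 of them, 2 higher and 1 lower, or 10.3%, against 25.5% of all probe sets, and limma called 0, with 1 at an unadjusted p under 0.05 (1.94% of all). The largest TCDD differences were those of Zfp36, which encodes an mRNA decay factor (-1.21, at 9.19 and 8.59 with TCDD and 10.61 and 9.58 with DMSO), and of the phosphatase gene Dusp1 (-0.83). Both also belong to the immediate early list, whose mean level was lower on the TCDD arrays.

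With number 1 the induced genes had a median difference of 0.04 and a mean of 0.41. Of the 29 genes, 12 were higher without overlap, 4 were lower and 13 overlapped, so that 55.2% did not overlap against 36.6% of all probe sets. Limma called 0. At an unadjusted p under 0.05 there were 11 higher and 3 lower genes, against 3.91% and 3.55% of all probe sets. Per1, a clock gene with a known receptor element, measured 10.01 and 9.55 on the TCDD and DMSO arrays numbered 1 against 7.69 and 7.82 on those numbered 2, a difference of 2.03 (limma adjusted p = 0.168). Rgs2, a regulator of G protein signalling, gave 10.49 and 10.24 for number 1 against 8.42 and 8.76 for number 2, a difference of 1.78 (adjusted p = 0.169). Left out in turn, each of the 4 arrays left this median between 0.03 and 0.18, and the highest of these medians came without DMSO array 2. Some of these genes respond to other signals as well, and the immediate early list was higher with number 1 in both treatments, at 9.13 and 9.90 against 8.26 and 9.15 on TCDD and DMSO arrays numbered 2. Over its 19 genes 9 were higher and 0 lower without overlap (13.9% and 22.7% of all probe sets), with a median difference of 0.73 that ranged from 0.12 (without DMSO array 1) to 1.38 (without TCDD array 1). Atf3 and Klf4, its members with the largest number differences among those not named for TCDD, were at 2.28 and 2.34. The part of these genes in the Errfi1 and Tsc22d3 differences was not tested.

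**Figure D3:**
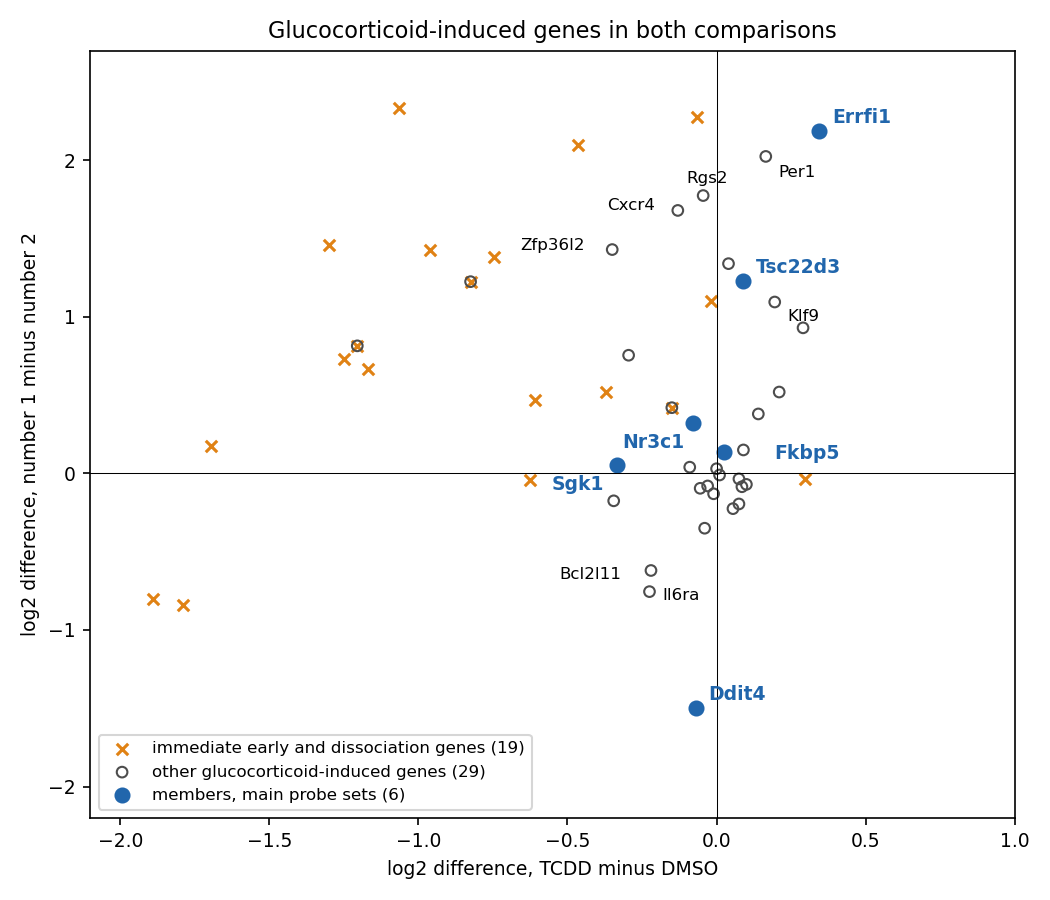
Log2 difference of TCDD minus DMSO (horizontal) against number 1 minus number 2 (vertical) for the 6 members, 29 other glucocorticoid-induced genes and 19 immediate early and dissociation genes, 1 probe set per gene. Errfi1 at 2.19, Per1 at 2.03 and Rgs2 at 1.78 lie high on the vertical axis, Ddit4 at -1.50 lies at the bottom, and most induced genes lie close to 0 on the horizontal axis. The orange crosses spread to the left, down to -1.89 for Hspa1a. That gene measured 9.14 on DMSO array 2, against 6.72 on DMSO array 1 and 6.45 and 5.63 on TCDD arrays 1 and 2. Dusp1, Zfp36 and Btg2 belong to both lists.

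Genes of the receptor's own machinery had median differences near 0 in both comparisons. Of 23 genes of its chaperone complex and cofactors, 17 were measured. With TCDD 4 were higher, 4 were lower and 9 overlapped (median -0.06), so that 47.1% did not overlap, against 25.5% of all probe sets. With number 1 against number 2, 4 were higher, 2 were lower and 11 overlapped (median 0.08), so that 35.3% did not overlap, against 36.6% of all. As arrays were left out, the TCDD median lay between -0.11 (without DMSO array 2) and 0.01 (without TCDD array 2), and the number median between 0.00 (without DMSO array 1) and 0.14 (without TCDD array 2). Limma called 0 in both comparisons, and at an unadjusted p under 0.05 there were 0 with TCDD (1.94% of all) and 2 higher with number 1 (3.91% of all). The corepressor gene Nrip1 and the deacetylase gene Hdac2 had the largest TCDD differences, -0.60 and -0.43. Nrip1 measured 7.34 on DMSO array 2 and between 6.17 and 6.36 on the other 3 arrays. Hsp90aa1, which encodes the inducible HSP90 that holds the receptor, measured 10.43 and 10.49 on the TCDD and DMSO arrays numbered 1 against 9.58 and 10.19 on those numbered 2, a difference of 0.58. The deacetylase gene Sirt1 differed by 0.98, at 7.58 and 6.90 for number 1 against 5.74 and 6.79 for number 2.

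Genes of steroid supply and related receptors, 9 measured of 11, had medians of 0.04 with TCDD and 0.01 with number 1, with 2 higher and 1 lower with TCDD and 0 higher and 3 lower with number 1. The share without overlap was 33.3% in each comparison, against 25.5% of all probe sets with TCDD and 36.6% with number 1. Both medians turned sign as arrays were left out, to -0.02 with TCDD (without DMSO array 1) and to -0.08 with number 1 (without DMSO array 2). Hsd11b1, whose enzyme regenerates active glucocorticoid inside cells, measured 9.05 and 9.30 with TCDD and 9.15 and 9.65 with DMSO, a difference of -0.23. Between the numbers it differed by -0.38. H6pd, whose enzyme supplies the cofactor for it, differed by 0.18 with TCDD. The steroid efflux pump genes Abcb1a and Abcb1b differed by -0.24 and 0.35 between the numbers. Limma called 0 of the 9, and 0 were under an unadjusted p of 0.05 in either comparison (1.94% of all probe sets with TCDD and 7.46% with number 1).

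Genes that glucocorticoids are known to repress, 17 measured of 18, had median differences of -0.09 with TCDD and 0.07 with number 1. The TCDD median turned to 0.06 without TCDD array 2 and to 0.08 without DMSO array 1, and the number median lay between 0.04 (without TCDD array 1) and 0.17 (without TCDD array 2). With TCDD 4 were higher and 3 lower, and with number 1 6 were higher and 1 lower. The 4 higher with TCDD were dim: Il6, Il2ra and Csf2 had means of 3.91, 4.93 and 5.53, below the median level of 6.01, and Nos2 had 6.09. The 3 lower, Tnf, Ccl3 and Tbx21, had means of 7.20, 6.30 and 7.35. Of the 17 genes 11 were above the median level. The share without overlap was 41.2% in each comparison, against 25.5% of all probe sets with TCDD and 36.6% with number 1. Limma called 0. At an unadjusted p under 0.05 there were 0 with TCDD (1.94% of all), and with number 1 there were 5 higher (3.91% of all) and 1 lower (3.55%). The cytokine gene Ifng measured 8.12 and 8.58 on the TCDD and DMSO arrays numbered 1 against 7.01 and 7.49 on those numbered 2, a difference of 1.10, and the adhesion gene Icam1 differed by 0.72. The orphan receptor gene Nr4a1 and the T-box factor gene Tbx21 had the largest TCDD differences, -0.75 and -0.74. Nr4a1 measured 9.47 and 8.75 with TCDD and 10.88 and 8.83 with DMSO, and its values overlapped. It also belongs to the immediate early list. Tbx21 measured 6.94 and 7.01 with TCDD and 7.22 and 8.21 with DMSO.

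Among paralogues of the members 14 of 18 were measured, with medians of 0.06 with TCDD and -0.01 with number 1, and 0 calls by limma. The TCDD median was -0.01 without TCDD array 2, and the number median was 0.02 without DMSO array 2. Tsc22d1, of the family of GILZ, followed the number as Tsc22d3 did, at 9.66 and 9.44 on the TCDD and DMSO arrays numbered 1 against 8.50 and 7.93 on those numbered 2 (difference 1.34, limma adjusted p = 0.319). The Tsc22d1 probe set has the ending _x_at, which marks possible cross-hybridisation. Whether its signal comes from Tsc22d1 alone was not tested. With TCDD Tsc22d1 differed by 0.40 and Fkbp2 by 0.29, both with overlapping values. Before adjustment 0 paralogues had p under 0.05 with TCDD (1.94% of all probe sets), and 1 higher (3.91%) and 1 lower (3.55%) between the numbers. Sgk3 differed by -0.15 between the numbers, and the immunophilin genes Fkbp2 and Fkbp8 by -0.43 and -0.25.

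Pathway partners of the target genes were compared in the same way. Of all probe sets 25.5% did not overlap with TCDD and 36.6% did not with number 1. The shares were 21.4% and 50% for partners of Sgk1, 8.33% and 58.3% for those of Ddit4 and 10.0% and 50% for those of Errfi1. For Sgk1, 14 of 15 partners were measured, with 2 higher and 1 lower with TCDD and 6 higher and 1 lower with number 1. The kinase gene Pdpk1, which encodes the activator of SGK1, was higher after TCDD by 0.34 (9.04 and 9.19 with TCDD and 8.62 and 8.94 with DMSO), and Foxo1 differed by -0.54 with overlapping values. Nedd4l, whose ligase is an SGK1 substrate, differed by 0.82 between the numbers, and Nedd4 by 0.44. For Ddit4, 12 of 14 partners were measured, with 0 higher and 1 lower with TCDD and 6 higher and 1 lower with number 1. The stress factors Atf4, an activator of Ddit4 transcription, and Ddit3 were higher with number 1, by 1.18 and 1.46, on the arrays where Ddit4 itself was lower. Hif1a, which encodes the hypoxia factor that induces Ddit4, differed by 0.59, and the translation repressor gene Eif4ebp2 by -0.90. For Errfi1, 10 of 11 partners were measured, with 0 higher and 1 lower with TCDD and 1 higher and 4 lower with number 1. Erbb2, a receptor kinase that MIG6 binds, differed by -0.26 and Shc1 by 0.15 between the numbers, and Grb2 and Lrig1 by -0.41 and 0.14 with TCDD. With TCDD the largest differences among the Ddit4 partners were those of Eif4ebp2 (-0.48) and Ddit3 (0.40), with overlapping values. Limma called 0 partners in either comparison. Before adjustment 0 partners had p under 0.05 with TCDD (1.94% of all probe sets). Between the numbers 4 partners of Sgk1 were higher and 0 lower by that measure, 2 of Ddit4 were higher and 1 lower, and 0 of Errfi1 were higher and 1 lower, against 3.91% of all probe sets higher and 3.55% lower.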

How the data were processed

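The deposited table gives log2 expression per probe set for 4 arrays, rounded to 2 decimals. The authors used RMA for these log2 values, per the submitters' processing notes, which name no version. RMA as usually run corrects background and normalises arrays to 1 distribution, and it compresses differences near the low end of the scale. Values ran from 3.09 to 14.62. No scanner file was used, so the background correction could not be varied.

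Of 22690 probe sets 64 Affymetrix controls were left out. Of the remaining 22626, 20380 had 1 gene symbol, 691 several and 1555 none here, and Entrez identifiers linked them to current RefSeq symbols. Differences were fitted in R 4.3.3 by the lmFit and eBayes functions of limma 3.58.1, without covariates or a filter, for TCDD minus DMSO and for title number 1 minus number 2, with Benjamini-Hochberg adjustment over all 22626 and a threshold of 0.05. The step was tested on simulated data. Values overlap unless both arrays of a group lie beyond both of the other.

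Members, lists and tests were chosen with earlier results of these data known. The rule for named genes takes all members, the 3 genes of most similar pattern for each, and up to 4 genes of each list above the median level, by the size of both differences. Marker lists covered CD8 T, CD4 T, B, NK, erythroid, plasma and myeloid cells. Sequences are from RefSeq. Alternatives were other scalings, a filter, a variance trend, removal of probe sets by name ending (among them _a_at, _s_at and _x_at), gene means, a block and leaving out arrays.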

Additional observations from a re-analysis of the deposited data

How the results depend on the processing

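The number of arrays limits every comparison. TCDD minus DMSO gave 0 calls with all 4 arrays and under every alternative run, with 439 probe sets at an unadjusted p under 0.05 with all 4 arrays and 116 to 1079 as arrays were left out. Number 1 minus number 2 gave 1 call, against 11 with a variance trend and robust fitting, 7 for means of a gene's probe sets, 0 with the replicate block and 0 with any array left out. None of the 6 genes passed under any alternative run. Averaging a gene's probe sets turned the TCDD difference of Nr3c1 to 0.012, of Tsc22d3 to -0.082 and of Fkbp5 to -0.0825, and the number difference of Fkbp5 to -0.0475 and brought that of Nr3c1 to 0.022, since the probe sets of these genes disagree, and it brought the Errfi1 number difference to 1.11. Tsc22d3 has no value in the run without probe sets marked for possible cross hybridisation, because that run also left out names ending in _a_at.

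Number differences ranged, as arrays were left out, from 1.70 to 2.68 for Errfi1, 1.16 to 1.30 for Tsc22d3, -1.78 to -1.23 for Ddit4, 0.12 to 0.53 for Nr3c1, 0.05 to 0.22 for Fkbp5 and -0.14 (without TCDD array 2) to 0.25 (without DMSO array 2) for Sgk1. TCDD differences ranged from -1.07 (without TCDD array 1) to 1.76 (without TCDD array 2) for Errfi1, -0.55 (without DMSO array 2) to 0.73 (without DMSO array 1) for Tsc22d3, -1.06 (without TCDD array 2) to 0.92 (without TCDD array 1) for Ddit4, and, in each case without TCDD array 1 and without TCDD array 2, -0.41 to 0.25 for Nr3c1, -0.12 to 0.17 for Fkbp5 and -0.39 to -0.28 for Sgk1. A group left with 1 array is assumed to vary like the other. Arrays of the same number deviated together (correlation of deviations from treatment means 0.23 across probe sets). The pair numbered 2 was still less alike (SD of log2 differences 0.32) than TCDD array 2 and DMSO array 1 (0.27). The labels give no pairing, so the replicate block is an alternative. It left the adjusted p of the 6 genes at 0.994 with TCDD and at 0.478 to 0.959 between the numbers. The list values without 1 array were added after seeing the data.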

Other observations

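Markers of other cell types differed between the title numbers in both directions. Of all probe sets 13.9% were higher and 22.7% lower without overlap, and several lists lay near those shares, among them the CD8 T cell and erythroid markers. Among B cell markers, 10 measured of 11, 4 were higher without overlap on the arrays numbered 1, the MHC class II genes H2-Aa, H2-Ab1 and H2-Eb1 and the invariant chain gene Cd74, by 1.16 to 1.49, and 3 were lower. Of the 7 neutrophil markers 0 were higher and 6 lower, and of the 10 monocyte and macrophage markers 0 were higher and 4 lower, among them Csf1r at -1.05 and C1qa at -0.81. Among 5 CD4 T cell markers 1 was higher and 2 were lower. Ctla4, an inhibitory receptor gene, measured 9.28 and 8.70 on the TCDD and DMSO arrays numbered 1 against 6.07 and 6.46 on those numbered 2, while Cd4 differed by -0.23. Of 9 CD8 T cell markers 0 were higher and 2 lower, of 4 NK cell markers 0 and 2, of 4 erythroid markers 0 and 1, and of 4 plasma cell markers 0 and 2. Limma called 0 markers in either comparison. Before adjustment p was under 0.05 between the numbers for 4 higher and 1 lower B cell markers, 1 higher CD4 T cell marker, 3 lower monocyte and macrophage, 2 lower neutrophil, 1 lower CD8 T cell and 1 lower plasma cell markers, against 3.91% of all probe sets higher and 3.55% lower. With TCDD it was under 0.05 for 2 lower CD8 T cell markers, against 1.14% of all probe sets lower.

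With TCDD, 4 of the 9 CD8 T cell markers were lower without overlap and 0 higher, with Thy1 at -0.70 and Cd8a at -0.73. The numbers higher and lower were 0 and 1 for B cell, 2 and 1 for monocyte and macrophage, 0 and 1 for neutrophil, 1 and 1 for CD4 T cell, 0 and 0 for NK cell, 0 and 1 for erythroid and 0 and 1 for plasma cell markers, against 13.5% of all probe sets higher and 12% lower.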
